A study of Homo sapiens with 4 samples.

Results

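The small nucleolar RNA host genes measured here are the 28 rows, of 58735 in the deposited tables, whose gene name is SNHG followed by a number, GAS5, ZFAS1 or EPB41L4A-AS1. They carry 27 symbols, because SNHG28 names 2 overlapping rows, and they lie on 14 chromosomes. HCT116, an established human colon cancer cell line, was used throughout. The tested cells carried an shRNA against RBM25 (RBM25_sh, 2 libraries) and the comparison cells a control shRNA (Control_sh, 2 libraries). No further treatment, time point or allele is given, and neither is the shRNA sequence or whether more than 1 was used. Whether the replicates came from separate cultures is not stated, so each p-value covers only the spread among these libraries, which may be technical.

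A host gene of this kind is transcribed and spliced, and the small nucleolar RNAs (snoRNAs) are cut out of its introns. Box C/D snoRNAs guide 2′-O-methylation and box H/ACA snoRNAs guide pseudouridylation of ribosomal RNA, while scaRNAs guide the same changes on spliceosomal RNAs in Cajal bodies. The spliced exons usually hold no long conserved reading frame. Several of these transcripts are translated briefly and then removed by nonsense-mediated decay, so their level depends on synthesis, splicing and decay. RBM25, the knocked-down gene, encodes a splicing regulator that binds RNA and contacts U1 snRNP components.

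Several host genes start with a terminal oligopyrimidine (TOP) tract, the run of C and T bases that also begins ribosomal protein mRNAs. RefSeq start entries on GRCh38.p14 were found for 23 of the 27 symbols. Of these, 6 have an entry with a C at the first transcribed base, then at least 4 pyrimidines on the sense strand. Among all 35116 entries, counted singly and not by symbol, the share was 4.07%. The windows below run from 10 bases before the start to 20 bases from it, with pyrimidine runs of at least 5 bases in capitals. SNHG16 and SNHG12 are shown because both knockdown libraries exceeded both controls, SNHG1 for its high level, and the others because they carry the TOP start and were expressed.
SNHG16, chr17:76557754-76557783, plus strand: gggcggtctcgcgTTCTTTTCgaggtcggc
SNHG12, chr1:28581854-28581883, minus strand: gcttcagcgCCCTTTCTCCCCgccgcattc
SNHG19, chr16:2155339-2155368, minus strand: ccgCCCCTgTCTTTTCggggtcgagtccga
SNHG4, chr5:139274091-139274120, plus strand: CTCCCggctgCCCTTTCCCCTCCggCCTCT
SNHG5, chr6:85678714-85678743, minus strand: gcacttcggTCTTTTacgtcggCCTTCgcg
ZFAS1, chr20:49278632-49278661, plus strand: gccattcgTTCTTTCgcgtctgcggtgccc
SNHG1, chr11:62855866-62855895, minus strand: gagattcgTTCTCaTTTTTCTactgctcgt
SNHG12, SNHG19, SNHG4, SNHG5 and ZFAS1 have the TOP start at the listed first base. The windows do not cover all 6 symbols with the TOP start, so a member without a window may still carry it. In SNHG16 a pyrimidine run begins shortly after the first base and in SNHG1 a run spans it. RefSeq starts need not equal the ends of the measured rows, and that of GAS5 lies upstream of its row and is not shown. These matches describe the listed starts only.

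The libraries held 15528274 and 16335555 counts for RBM25_sh and 15528869 and 16982663 for Control_sh. RBM25 had 44.0 and 35.7 CPM (counts scaled to a common library size by TMM) in RBM25_sh, against 155 and 115 CPM in Control_sh, −1.76 ± 0.30 on the log2 scale (SE, edgeR adjusted p = 0.0195), so the targeted transcript fell. All 6 epithelial markers listed were expressed, and EPCAM stood at 286 and 247 CPM in RBM25_sh and at 287 and 268.7 CPM in Control_sh. Of 10 markers of other cell types only COL1A1 was expressed well enough to be tested, and the summed level of the list was 37.4 and 47.5 CPM in RBM25_sh and 39.6 and 62.9 CPM in Control_sh. The T cell marker CD3E was at 0 in all libraries and the leukocyte marker PTPRC at 0 in 3 of 4.

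Of the 28 rows, 22 had enough counts to be tested. Of the log2 fold changes (RBM25_sh over Control_sh) 6 were above 0 and 16 below, with a median of −0.23, against −0.04 over all 16091 genes tested. SNHG28 was the only row past the threshold (edgeR adjusted p under 0.05), and it was lower. None was called higher. Over all genes 3.05% were called, 0.653% higher and 2.4% lower, so 1 of 22 is near the background. At an unadjusted p under 0.05, 3 of the 22 passed, below the 21.4% of all genes, and DESeq2 called 1 member higher, SNHG16. In bulk RNA, less RNA per cell and fewer expressing cells cannot be told apart. The summed level of all members was 1385 and 1273 CPM in RBM25_sh and 1029 and 1478 CPM in Control_sh, and the control libraries enclosed the knockdown libraries.

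**Figure D1:**
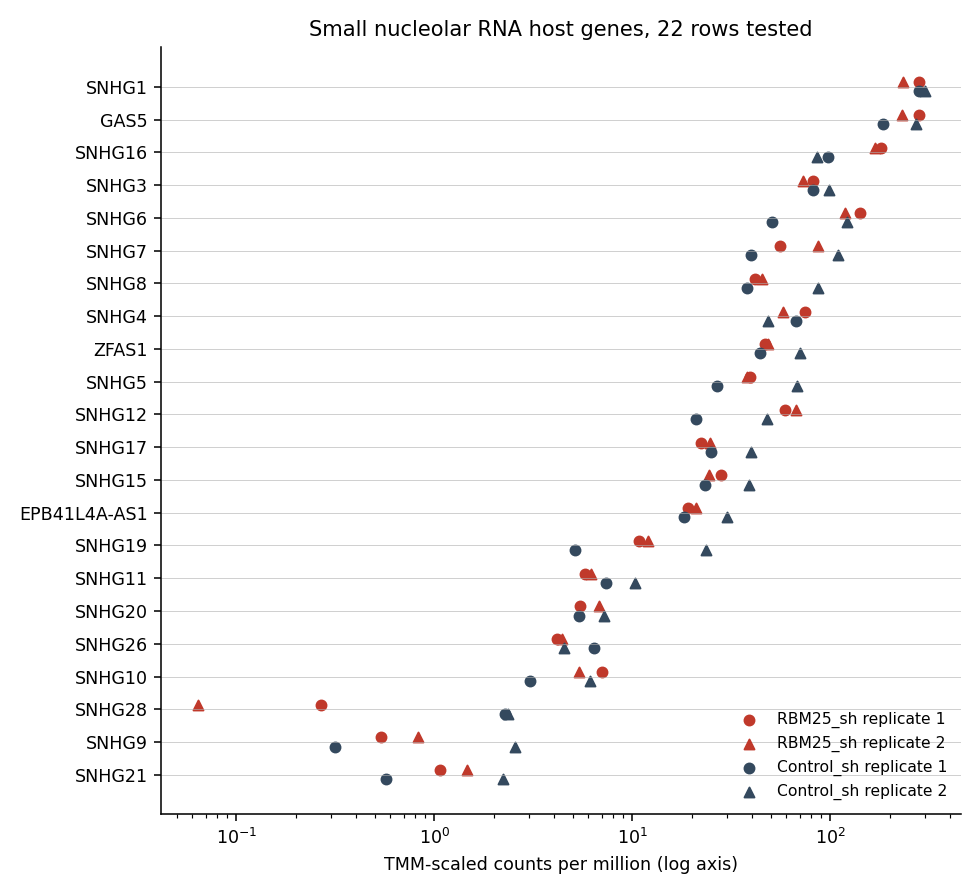
TMM-scaled CPM of the 22 tested host gene rows on a log axis, with one point per library, RBM25_sh in red and Control_sh in dark blue, circles for replicate 1 and triangles for replicate 2. For SNHG16 and SNHG12 both red points lie above both blue points, for SNHG28 they lie far below, and for many others Control_sh replicate 2 lies furthest to the right.

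Among the hosts of box C/D snoRNAs, SNHG16 was higher in both knockdown libraries. SNHG16 (ENSG00000163597, GRCh38 chromosome 17, 76557766 to 76565348, plus strand), whose span holds SNORD1A, SNORD1B and SNORD1C, had 180 and 168 CPM in RBM25_sh, against 97.8 and 85.7 CPM in Control_sh. The 2 groups did not overlap, and each library lay close to its partner. The mean was 174 ± 8.12 CPM in RBM25_sh and 91.8 ± 8.59 CPM in Control_sh (SD, n = 2 each), a log2 fold change of 0.92 ± 0.27 (SE). This missed the edgeR threshold over all genes, with an unadjusted p of 0.0064 and an edgeR adjusted p of 0.0922. After each library's trend on GC content was removed, a setting under which 12.8% of all genes were called higher, it was 0.86 ± 0.12 with an edgeR adjusted p of 0.00166. DESeq2 called it with all libraries (0.97, DESeq2 adjusted p = 0.0236), a setting that called 386 genes higher, against 105 with edgeR. It was not called by limma-voom (limma adjusted p = 0.093). With a library left out it ranged from 0.83 without Control_sh replicate 2 to 1.03 without Control_sh replicate 1. Whether it was called then depended on the library left out. The opposite-strand gene AC015802.6 that overlaps SNHG16 had at most 8 counts in any library, against at least 1536 for SNHG16.

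SNHG6, SNHG1 and GAS5 had the highest FPKM averaged over all 4 libraries. SNHG6 (chromosome 8, 66921684 to 66926398, minus strand), host of SNORD87, had 141 and 119 CPM in RBM25_sh, against 51.0 and 122 CPM in Control_sh. The control libraries differed 2.39-fold and the groups overlapped. With a log2 fold change of 0.59 ± 0.39 it missed the threshold (edgeR adjusted p = 0.423). It was 1.35 without Control_sh replicate 2 (edgeR adjusted p = 0.00645) and 0.10 without Control_sh replicate 1. Which control library is kept therefore decides the call.

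SNHG1 (ENSG00000255717, chromosome 11, 62851988 to 62855914, minus strand) carries a cluster of box C/D snoRNAs from SNORD22 to SNORD30. It had 281 and 232 CPM in RBM25_sh and 280 and 300 CPM in Control_sh. The groups overlapped, and its log2 fold change was −0.18 ± 0.27 (edgeR adjusted p = 0.746). GAS5 (ENSG00000234741, chromosome 1, 173863900 to 173868882, minus strand), first described as a transcript that accumulates in growth-arrested cells, had 280 and 231 CPM in RBM25_sh and 184 and 272 CPM in Control_sh. Its groups overlapped and the log2 fold change was 0.17 ± 0.29 (edgeR adjusted p = 0.789), or −0.01 ± 0.25 with the GC trend removed. In its annotation 19 of 29 transcripts are retained-intron forms. No listed snoRNA row lies inside it, in contrast to the other expressed members. That describes the rows of the annotation used, not whether GAS5 carries snoRNAs.

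ZFAS1, SNHG5, SNHG19 and SNHG26 are the other tested box C/D hosts. ZFAS1 (chromosome 20, 49278178 to 49295738, plus strand), which carries the SNORD12 family, had 47.0 and 48.5 CPM in RBM25_sh and 44.3 and 70.5 CPM in Control_sh. SNHG5 (chromosome 6, 85660950 to 85678748, minus strand), host of SNORD50B, had 39.1 and 37.8 CPM in RBM25_sh and 26.9 and 68.1 CPM in Control_sh. SNHG19 (chromosome 16, 2154797 to 2155358, minus strand), host of SNORD60, had 10.9 and 11.98 CPM in RBM25_sh and 5.12 and 23.7 CPM in Control_sh. In these 3 genes the knockdown libraries nearly coincided and sat between the control libraries. Their log2 fold changes lay between −0.34 and −0.27 and none was called. Without Control_sh replicate 1, SNHG19 was called lower (−1.04, edgeR adjusted p = 0.0349), while without Control_sh replicate 2 it was 1.15. SNHG26, host of SNORD93, had 4.15 and 4.40 CPM in RBM25_sh and 6.39 and 4.52 CPM in Control_sh, lower in both but not called (−0.35 ± 0.36, edgeR adjusted p = 0.626).

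Among the hosts of box H/ACA snoRNAs, SNHG12 was higher in both knockdown libraries. SNHG12 (ENSG00000197989, chromosome 1, 28578538 to 28583132, minus strand) holds SNORA16A, SNORA44, SNORA61 and the box C/D SNORD99. It had 59.2 and 67.1 CPM in RBM25_sh, against 20.9 and 48.0 CPM in Control_sh. The groups did not overlap, but the 2 controls differed more from each other than the higher control from the knockdown libraries. The mean was 63.2 ± 5.56 CPM in RBM25_sh and 34.5 ± 19.1 CPM in Control_sh (SD, n = 2 each). At 0.87 ± 0.38 on the log2 scale it missed the threshold (edgeR adjusted p = 0.223). With the GC trend removed it was 1.10 ± 0.22 (edgeR adjusted p = 0.00798), and without Control_sh replicate 2 it was 1.59 (edgeR adjusted p = 0.00166) against 0.41 without Control_sh replicate 1. TRNAU1AP, on the opposite strand, ends at 28578545 and so shares only a few bases with SNHG12. TRNAU1AP had 13.9 and 15.5 CPM in RBM25_sh and 11.4 and 17.7 CPM in Control_sh, with overlapping groups.

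SNHG16 and SNHG12 were the only 2 of the 22 tested members with both RBM25_sh values above both Control_sh values, while 5 had both below. Over all genes tested 23.9% were apart upwards and 27.9% downwards, so the counts of 2 and 5 are not above the background. The 5 were SNHG28, SNHG3, SNHG17, SNHG11 and SNHG26.

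**Figure D2:**
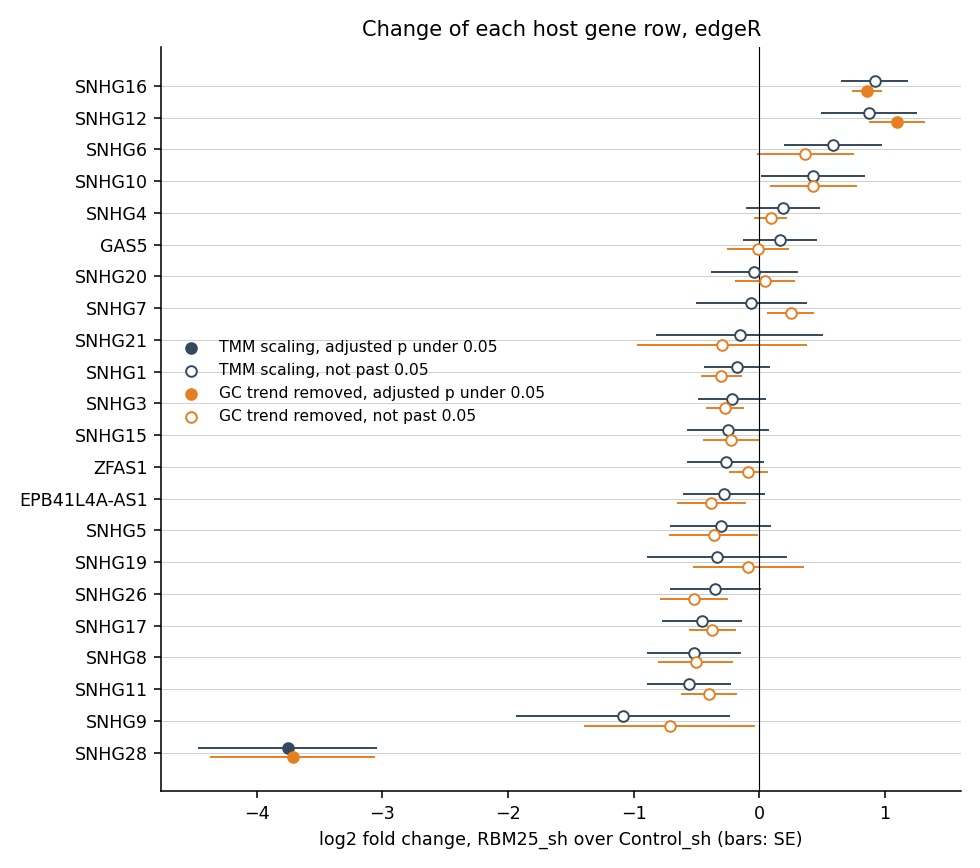
Log2 fold change of RBM25_sh over Control_sh for the 22 tested rows with SE bars, in dark blue as scaled by TMM and in orange with each library's GC trend removed. Filled points passed an edgeR adjusted p of 0.05: SNHG28 under both settings, and SNHG16 and SNHG12 with the GC trend removed.

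SNHG3 (chromosome 1, 28505980 to 28510892, plus strand), host of SNORA73A and SNORA73B, which act in processing of ribosomal RNA precursors, had 81.8 and 73.1 CPM in RBM25_sh and 82.0 and 98.1 CPM in Control_sh. The gap between the nearest libraries was a fraction of a CPM, and the log2 fold change was −0.22 ± 0.27 (edgeR adjusted p = 0.689). It lies within the span of RCC1, the nucleotide exchange factor of RAN, which had 113 and 137 CPM in RBM25_sh and 117 and 152 CPM in Control_sh. Neither gene of the pair was called.

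On chromosome 20, SNHG17 (38420588 to 38435353, minus strand) carries SNORA71A to SNORA71D, and its neighbour SNHG11 carries SNORA71E and SNORA60. SNHG17 had 22.3 and 24.7 CPM in RBM25_sh and 24.9 and 39.6 CPM in Control_sh. SNHG11 had 5.76 and 6.18 CPM in RBM25_sh and 7.34 and 10.3 CPM in Control_sh. Both were lower in each knockdown library, with log2 fold changes of −0.46 ± 0.32 and −0.56 ± 0.33, and neither was called (edgeR adjusted p = 0.446 for SNHG17 and 0.371 for SNHG11).

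SNHG8, the host of SNORA24, and SNHG7, the host of SNORA17A and SNORA17B, each had a call or direction that depended on the control library. SNHG8 (chromosome 4, 118278709 to 118279823, plus strand) had 41.7 and 45.0 CPM in RBM25_sh and 38.0 and 86.2 CPM in Control_sh. SNHG7 (chromosome 9, 136721366 to 136728184, minus strand) gave 55.8 and 86.8 CPM in RBM25_sh and 39.5 and 110 CPM in Control_sh. Control_sh replicate 1 was the lowest and Control_sh replicate 2 the highest library in both genes. SNHG8 changed by −0.52 ± 0.38 (edgeR adjusted p = 0.462), and it was called lower without Control_sh replicate 1 (−0.98, edgeR adjusted p = 0.034). SNHG7 changed by −0.06 ± 0.44 (edgeR adjusted p = 0.954), and with the GC trend removed by 0.25 ± 0.19; its transcript has 65.9% GC, among the highest of the members.

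SNHG4, host of SNORA74A and SNORA74D, stood apart from this pattern. It had 74.2 and 57.6 CPM in RBM25_sh and 67.1 and 48.7 CPM in Control_sh, with replicate 1 above replicate 2 in both groups, and was not called (0.19 ± 0.29, edgeR adjusted p = 0.761). SNHG15, host of SNORA9, had 27.9 and 24.3 CPM in RBM25_sh and 23.3 and 38.9 CPM in Control_sh. EPB41L4A-AS1, the host of SNORA13 that lies antisense to EPB41L4A, had 19.0 and 20.8 CPM in RBM25_sh and 18.3 and 30.1 CPM in Control_sh. In SNHG15 and EPB41L4A-AS1 the controls again enclosed both knockdown values, and neither was called. SNHG9, host of SNORA78, was low, with 8 and 13 counts in RBM25_sh and 5 and 46 counts in Control_sh.

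The 3 tested hosts of scaRNAs were expressed at low levels and were not called. SNHG10, host of SCARNA13, had 7.04 and 5.35 CPM in RBM25_sh and 3.04 and 6.14 CPM in Control_sh (0.43 ± 0.41, edgeR adjusted p = 0.594). SNHG20, host of SCARNA16, had 5.43 and 6.82 CPM in RBM25_sh and 5.38 and 7.20 CPM in Control_sh, where replicates of the same number nearly matched across the groups. SNHG21, host of SCARNA15, had 16 and 23 counts in RBM25_sh and 9 and 40 counts in Control_sh.

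SNHG28 was lower in the knockdown by far more than any other member. The called row (ENSG00000256029, chromosome 1, 159834474 to 159873053, minus strand, biotype protein_coding) had 4 and 1 counts in RBM25_sh, against 36 and 42 counts in Control_sh. That is 0.268 and 0.0637 CPM in RBM25_sh and 2.28 and 2.34 CPM in Control_sh, with a fitted log2 fold change of −3.76 ± 0.72 (SE) and an edgeR adjusted p of 0.0284. The ratio of the summed values, RBM25_sh to Control_sh, was 0.0706 with an exact 95% interval of 0.0223 to 0.172 that covers counting error only. The edgeR adjusted p was 0.0889 without RBM25_sh replicate 2, where the log2 fold change was −3.03. On the log2(FPKM + 1) scale, which compresses low values, it was −0.32 (limma-trend adjusted p = 0.101). The second SNHG28 row, a lincRNA inside the first, had 0 counts in all libraries. The called row overlaps CFAP45, a same-strand gene for a cilium protein, with 8 and 6 counts in RBM25_sh and 22 and 19 counts in Control_sh. It also overlaps the opposite-strand AL590560.1, with 18 and 10 counts in RBM25_sh and 46 and 41 counts in Control_sh. Both overlapping genes were lower in each knockdown library without passing the threshold. The overlapping VSIG8, on the same strand, and SLAMF8, on the opposite strand, had 0 counts in all libraries. How reads in shared stretches were assigned is not given.

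The 6 rows left out of the test had few or no counts. SNHG14, the long transcript of the imprinted Prader-Willi region that spans 84 snoRNA rows, had 6 and 8 counts in RBM25_sh and 2 and 2 counts in Control_sh. SNHG22 had 3 and 9 counts in RBM25_sh and 5 and 2 counts in Control_sh. SNHG25, a very short host of SNORD104, had 4 and 4 counts in RBM25_sh and 0 and 48 counts in Control_sh. SNHG25 was thus seen mainly in Control_sh replicate 2. SNHG18 and SNHG27 had no counts, so expression was not detectable at this depth. The second SNHG28 row was also at 0, but it lies wholly inside the first on the same strand, so its 0 does not measure that transcript.

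Per length, the members spread over a wide range. By mean FPKM (the authors' length-scaled values) over the 4 libraries, SNHG6 led with 84.6, followed by SNHG1 with 70.8, GAS5 with 65.0, SNHG8 with 55.4 and SNHG19 with 36.6. This order depends on the listed lengths, 1247 bases for SNHG6, 3756 for SNHG1 and 3631 for GAS5. In mean CPM SNHG6 had 130 in RBM25_sh and 86.3 in Control_sh. SNHG1 (256 and 290) and GAS5 (256 and 228) stood above it in both groups. SNHG6 ranged from 91.5 to 114 FPKM in RBM25_sh and from 39.4 to 93.6 FPKM in Control_sh, so it cannot be placed above SNHG1 (59.4 to 75.5 FPKM in RBM25_sh, 71.7 to 76.6 FPKM in Control_sh) in both groups. SNHG1 and GAS5 overlapped in RBM25_sh, where GAS5 had 78.0 and 61.2 FPKM. SNHG8 had 45.6 and 46.9 FPKM in RBM25_sh, below GAS5, but 39.6 and 89.6 FPKM in Control_sh, where it enclosed GAS5 at 48.9 and 71.7 FPKM. Next came SNHG16 at 24.2, ZFAS1 at 22.8, SNHG3 at 19.9, SNHG7 at 16.3, SNHG5 at 14.9, SNHG4 at 13.5 and SNHG12 at 11.2 mean FPKM, neighbours whose ranges over the 4 libraries overlapped. Within groups the order could turn: SNHG16 had 33.8 and 30.2 FPKM in RBM25_sh, above ZFAS1 at 21.2 and 20.8 FPKM, but 17.6 and 15.3 FPKM in Control_sh, below ZFAS1 at 19.0 and 30.2 FPKM. The remaining tested members had mean values from 0.147 FPKM (SNHG28) to 7.63 FPKM (SNHG15). In rank among all 58735 rows, SNHG6 was at 341, SNHG1 at 424 and GAS5 at 463.

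Host gene values differed more between the Control_sh libraries than between the RBM25_sh libraries. Among the 19 members with at least 20 counts in every library, 16 were higher in Control_sh replicate 2 than in Control_sh replicate 1, and 7 differed more than 2-fold. In RBM25_sh 10 of the 19 were higher in replicate 2 and none differed more than 2-fold. Over all 12805 genes with as many counts, 50.1% were higher in replicate 2 of RBM25_sh and 48.6% in replicate 2 of Control_sh, and 2.6% and 7.52% differed more than 2-fold in those groups. Among 629 other long noncoding genes, a set chosen after the values were seen, 53.4% were higher in replicate 2 of Control_sh and 9.54% differed more than 2-fold. The median size of the difference between libraries for the members was 0.16 on the log2 scale in RBM25_sh and 0.67 in Control_sh, against 0.28 and 0.44 over all genes. No test was made of whether the host genes differ from other genes in this.

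**Figure D3:**
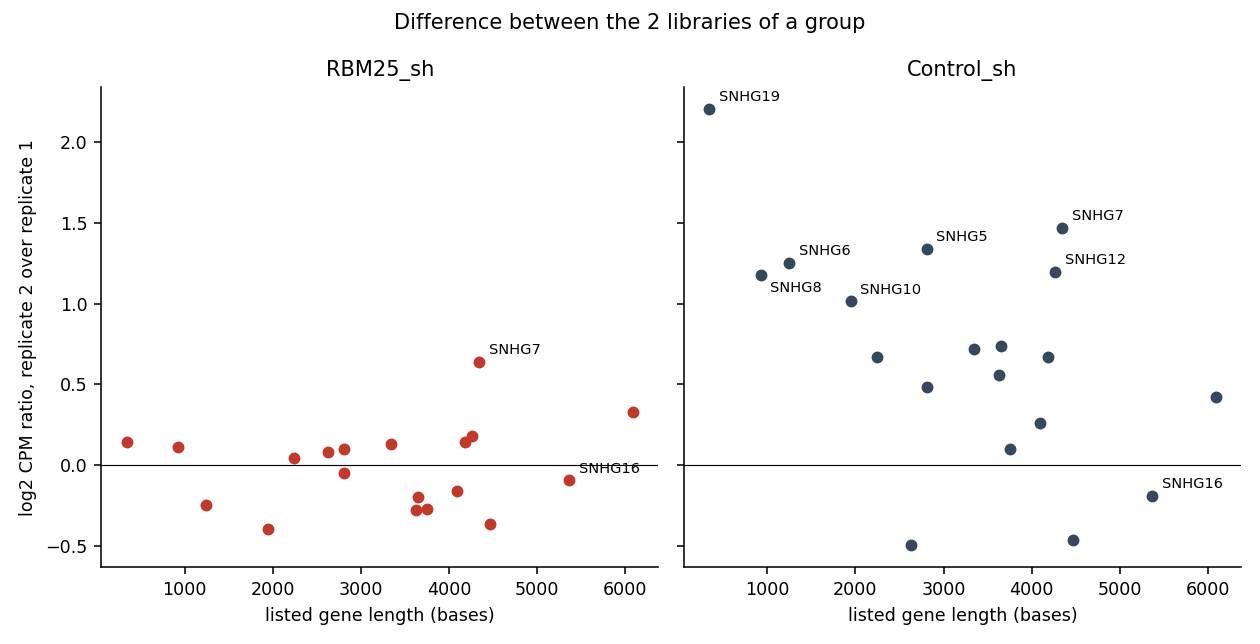
Log2 ratio of CPM in replicate 2 to replicate 1 against listed gene length in bases for the 19 members with at least 20 counts in every library, RBM25_sh on the left and Control_sh on the right. In Control_sh 16 points lie above 0, SNHG19 at 2.21 highest, and in RBM25_sh the points lie between −0.39 and 0.64.

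The 7 members were SNHG19, SNHG7, SNHG5, SNHG6, SNHG12, SNHG8 and SNHG10. Across the 19 members, the Control_sh ratio had a Spearman correlation of −0.45 with gene length and of 0.51 with GC content; the RBM25_sh ratio had 0.17 and 0.67. These describe genes of the same libraries, which are not independent. Across 10378 well expressed genes of the whole table, the correlation of the ratio with GC content was 0.84 in RBM25_sh and 0.82 in Control_sh. Over the same genes the log2 fold change of RBM25_sh over Control_sh had a correlation of −0.305 with GC content. Removing each library's GC trend can therefore also take out a difference between the groups. The part of GC content, length and RNA quality in the host gene values was not tested.

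The direction of the members' median depended on which control library was kept. It was −0.56 without Control_sh replicate 1 and 0.19 without Control_sh replicate 2, and it stayed at −0.25 with the GC trend removed. With that trend removed 2 members were called higher and 1 lower, against 12.8% and 15.3% of all genes, so the members' share is again not above the background.

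Few rows of the snoRNAs themselves had counts. Of 136 snoRNA or scaRNA rows inside the members, 119 had no count in any library and 7 were tested, none called. All 44 rows that overlap an annotated exon of their host were among those at 0, so these zeros do not measure the snoRNAs. All 84 rows inside SNHG14, some of them in its exons, were also at 0. SNHG14 itself had from 2 to 8 counts in each library. Zeros there do not separate a barely expressed host from snoRNAs that were not captured. Of the 21 rows outside SNHG14 and host exons, 17 had a count. They summed to 173 and 185 counts in RBM25_sh and 141 and 231 counts in Control_sh. SNORA73B, within SNHG3, had 44 and 52 counts in RBM25_sh and 39 and 44 counts in Control_sh. SNORD12B, within ZFAS1, had 18 and 24 counts in RBM25_sh and 25 and 14 counts in Control_sh. SNORD104, which lies between the exons of SNHG25, had 9 and 19 counts in RBM25_sh and 7 and 107 counts in Control_sh. It was thus high in the library where its host was high. In rows between host exons, reads of the snoRNA and of unspliced host RNA cannot be told apart. SNORA71A, SNORA71B and SNORA71C within SNHG17 had from 6 to 22 counts in each library. The groups overlapped in CPM for SNORA71B and SNORA71C. In counts SNORA71B was lower in the knockdown, with 16 and 9 in RBM25_sh and 21 and 17 in Control_sh. SNORA71A had 11 and 12 counts in RBM25_sh and 7 and 6 counts in Control_sh (0.94 ± 0.68, edgeR adjusted p = 0.463). SNORD99, SNORA13, SCARNA13 and SNORA74A had at most 15 counts in any library.

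Other genes that carry snoRNAs in their span were set beside the members. Of 231 tested protein-coding hosts 2 rose and 2 fell, with a median log2 fold change of 0.10, against 0.653% higher and 2.4% lower over all genes. With the GC trend removed 47 were called higher and 25 lower, against 12.8% and 15.3% of all genes. HSPA8, the constitutive HSP70 chaperone, had 2918 and 2473 CPM in RBM25_sh, against 548 and 368 CPM in Control_sh (2.56 ± 0.30, edgeR adjusted p = 0.00637). AHSA1, the activator of the HSP90 ATPase, rose as well, with 192 and 200 CPM in RBM25_sh and 77.9 and 89.5 CPM in Control_sh (1.23 ± 0.27, edgeR adjusted p = 0.0439). NUCKS1, a chromatin-associated nuclear protein, fell to 168 and 127 CPM in RBM25_sh, against 642 and 410 CPM in Control_sh (−1.84 ± 0.32, edgeR adjusted p = 0.0216). TMEM107, a transition zone protein of the cilium, fell to 1.01 and 2.61 CPM in RBM25_sh, against 11.3 and 14.3 CPM in Control_sh (−2.81 ± 0.46, edgeR adjusted p = 0.0168). None of the 15 tested noncoding hosts outside the members was called, with a median of 0.11; DANCR, host of a box H/ACA snoRNA, had 77.7 and 78.9 CPM in RBM25_sh and 48.8 and 50.9 CPM in Control_sh (0.65 ± 0.26, edgeR adjusted p = 0.192). Of these 15, 5 had an unadjusted p under 0.05, against 21.4% of all genes. With the GC trend removed 1 was called higher and 2 lower, with a median of −0.06. AC019080.1, AC078923.1 and LINC02001 had negative log2 fold changes of −1.21 ± 0.39, −0.95 ± 0.38 and −1.08 ± 0.44.

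**Figure D4:**
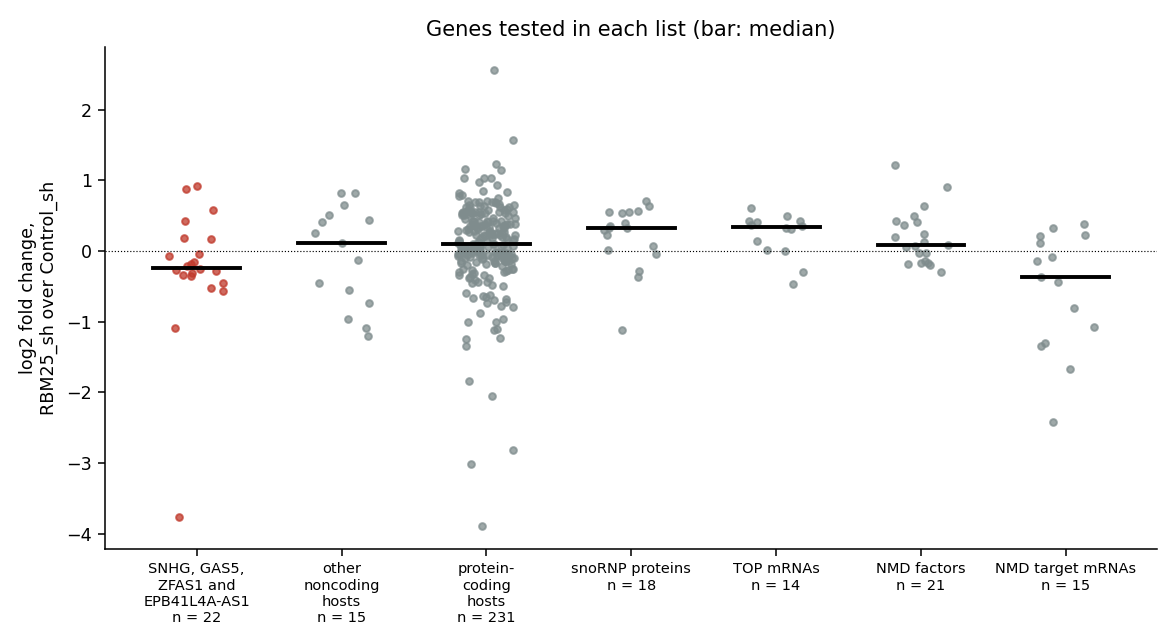
Log2 fold change of RBM25_sh over Control_sh for each tested gene of the host classes and lists, one point per gene, with a bar at the median. The SNHG, GAS5, ZFAS1 and EPB41L4A-AS1 median is −0.23, the medians of the protein-coding and other noncoding hosts are 0.10 and 0.11, and the medians of snoRNP proteins and TOP mRNAs are 0.33 and 0.34.

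Proteins that build and mature snoRNPs were not called, at 0 of 18, with 14 above 0 and a median of 0.33. NOP58, a core box C/D protein, had 204 and 162 CPM in RBM25_sh and 126 and 96.8 CPM in Control_sh (0.71 ± 0.29, edgeR adjusted p = 0.19). NOLC1, a nucleolar chaperone of snoRNPs, was at 0.56 ± 0.26 and the assembly factor ZNHIT3 at 0.64 ± 0.29. PIH1D1, a subunit of the R2TP assembly complex, went the other way, with 26.2 and 33.5 CPM in RBM25_sh and 49.2 and 80.3 CPM in Control_sh (−1.12 ± 0.32, edgeR adjusted p = 0.0927). With the GC trend removed 6 of the 18 were called higher and 1, PIH1D1, lower, against 12.8% and 15.3% of all genes. At an unadjusted p under 0.05, 2 of the 18 passed, against 21.4% of all genes.

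TOP mRNAs other than those of ribosomal proteins share their start sequence with several members, and 0 of 14 tested were called. Of these 11 were above 0, with a median of 0.34. NPM1, the nucleolar phosphoprotein, had 1759 and 1384 CPM in RBM25_sh and 1191 and 870 CPM in Control_sh (0.61 ± 0.28, edgeR adjusted p = 0.244). EEF1B2 and EEF1A1, translation elongation factor genes, had 0.43 ± 0.26 and 0.35 ± 0.22, and EIF4B, an initiation factor gene, had −0.47 ± 0.25. With the GC trend removed 2 of the 14 were called higher and 1, EIF4B, lower, against 12.8% and 15.3% of all genes. None of the 14 had an unadjusted p under 0.05, against 21.4% of all genes.

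Genes of nonsense-mediated decay, the pathway that degrades many host transcripts, were not called, at 0 of 21 with a median of 0.08. DHX34, a helicase of the pathway, had 69.6 and 108 CPM in RBM25_sh and 29.7 and 46.6 CPM in Control_sh (1.22 ± 0.34, edgeR adjusted p = 0.0827). SMG8, a subunit of the SMG1 kinase complex, was at 0.90 ± 0.28, UPF2 at 0.64 ± 0.29 and the exon junction factor EIF4A3 at 0.50 ± 0.27. With the GC trend removed 5 of the 21 were called higher and none lower, against 12.8% and 15.3% of all genes. At an unadjusted p under 0.05, 2 of the 21 passed, against 21.4% of all genes.

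Of 15 mRNAs listed as targets of the same pathway 2 fell and none rose, with a median of −0.36, against 2.4% lower and 0.653% higher over all genes. With the GC trend removed 6 were called lower and 1 higher, with a median of −0.19, against 15.3% and 12.8% of all genes. UPP1, uridine phosphorylase, fell to 16.8 and 23.4 CPM in RBM25_sh, against 82.9 and 132 CPM in Control_sh (−2.42 ± 0.34, edgeR adjusted p = 0.0114). SLC7A11, the cystine transporter, fell to 130 and 135 CPM in RBM25_sh, against 540 and 305 CPM in Control_sh (−1.67 ± 0.33, edgeR adjusted p = 0.0309). GADD45A, a growth arrest gene, was at −1.34 ± 0.36 and ASNS, asparagine synthetase, at −1.31 ± 0.32, both just short of the threshold (edgeR adjusted p = 0.0794 and 0.0589). SLC7A11 and ASNS are also known targets of the stress factor ATF4, an amino acid response regulator.

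The counts join all transcripts of a gene. Of the 28 rows 12 include retained-intron transcripts, and shares of spliced, unspliced and decay-prone forms were not analysed here. Among the 22 tested rows 13 overlap another gene on either strand, by any extent. Without a stated strand setting the source of reads in shared stretches cannot be told apart. ZFAS1 overlaps ZNFX1, its antisense partner, which had 165 and 157 CPM in RBM25_sh and 100 and 82.3 CPM in Control_sh (0.82 ± 0.27, edgeR adjusted p = 0.127), while ZFAS1 itself was −0.27 ± 0.30.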

How the data were processed

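TRIzol-extracted, column-purified RNA went into standard Illumina libraries, per the labels' protocols. Cuffdiff 2.1.1, Cufflinks 2.1.1, TopHat2 2.0.9 and Bowtie2 2.0.6 are listed, with no roles, in the submitters' processing notes. Which tool counted reads, its strand setting and the genome build: not given in the sources used here. The deposited counts are whole numbers per gene, and the deposited FPKM equal count over gene length times 1 factor per library. Library totals were 15528274 to 16982663 counts. The positions of all 58735 rows equal GENCODE 29 on GRCh38, and 27 names held as dates were taken from it.

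Counts were tested with edgeR 4.0.16 in R 4.3.3: filterByExpr, TMM scaling and a two-sided quasi-likelihood F test with group as the only term (2 residual degrees of freedom, common biological coefficient of variation 0.252), with Benjamini-Hochberg adjustment over 16091 genes and a threshold of 0.05. The SE is the log2 fold change over the square root of F. Other hosts are genes whose span on the same strand holds a whole snoRNA or scaRNA row. Alternatives were DESeq2 1.42.0, limma 3.58.1 (voom on counts, trend on log2(FPKM + 1)), other scalings and filters, GC offsets (loess span 0.3, GC of the longest transcript, known for 99.95% of genes), a replicate block and leaving out each library. The fits were run on simulated data with known changes, with and without a GC trend between replicates. Under such a trend the fit without GC offsets recovered fewer of these changes. The offsets remove a trend of just that kind, so this outcome followed from the simulated setting. The simulated biological coefficient of variation was also below the 0.252 of the measured libraries. False calls from those runs are not given here, so the runs cannot rank the settings for the measured libraries. Named genes are RBM25, all members, up to 4 genes of smallest p per list or host class, genes that overlap a member, and snoRNA rows with at least 10 counts. The members, lists and alternatives were chosen with earlier results of these data known, and the offsets for GC and length together after the values were seen.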

Additional observations from a re-analysis of the deposited data

How the results depend on the processing

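Members called higher numbered 0 with TMM and 1 with DESeq2, 2 with the GC trend removed, 2 with the GC and length trends removed, 3 with a replicate block and 3 with the block and the GC trend removed, and ranged from 0 to 2 without 1 library. Members called lower numbered 1, but 0 with limma-trend on log2(FPKM + 1), 3 with the replicate block and 2 with the block and the GC trend removed, and ranged from 0 to 4 without 1 library. The members' median ranged from −0.56 to 0.19 without 1 library.

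Over all genes 105 were called higher and 386 lower, against 386 and 699 with DESeq2, 58 and 157 with limma-trend, 439 and 999 without a filter, 2059 and 2468 with the GC trend removed, 2189 and 2535 with the GC and length trends removed, 2641 and 3081 with the replicate block and 3023 and 3305 with the block and the GC trend removed. Without 1 library the counts ranged from 55 to 875 higher and from 149 to 1514 lower.

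Same-numbered libraries deviated together (correlation 0.466 across genes), but the labels give the numbers no shared culture or day. Under the replicate block SNHG16, SNHG12 and SNHG6 were called higher and SNHG28, SNHG8 and SNHG17 lower. Over all genes 16.4% were called higher and 19.1% lower under the block. The members' 3 higher and 3 lower of 22 are therefore not above the background.

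Several uncalled members changed sign. SNHG7 was 0.25 with the GC trend removed, 0.24 with GC and length removed, 0.10 with limma-trend, 0.0794 with limma-voom, 0.0693 with the replicate block and 0.28 with the block and GC. GAS5 was −0.0099 with the GC trend removed and −0.0208 with GC and length removed. SNHG20 was 0.0062 with DESeq2, 0.0061 with DESeq2 size factors, 0.0003 with limma-trend, 0.0478 with the GC trend removed, 0.0525 with GC and length removed and 0.0502 with the block and GC. SNHG21 was 0.0208 with limma-trend, 0.11 with limma-voom and 0.0118 with the replicate block. SNHG19 was 0.0722 with limma-trend, 0.0313 with limma-voom and 0.10 with the block and GC. Without 1 library the log2 fold change ranged from −0.55 to 0.11 for ZFAS1, −0.81 to 0.52 for SNHG5, −0.58 to 0.12 for EPB41L4A-AS1, −0.56 to 0.17 for SNHG15, −0.61 to 0.85 for SNHG7, −0.0784 to 0.47 for GAS5, −0.22 to 0.19 for SNHG20, −0.80 to 1.15 for SNHG21, −1.89 to 1.09 for SNHG9, −1.04 to 1.15 for SNHG19, −0.98 to 0.19 for SNHG8 and −0.0283 to 0.44 for SNHG4. Of the 22 members 11 turned sign without Control_sh replicate 2. The cause was not tested. Leaving out a library leaves 1 in its group, which is assumed to vary like the other group. The filter of at least 1 CPM left 21 members.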
